A study of Mus musculus with 18 samples.

Results

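The Hox genes of the mouse were followed across 6 kinds of pluripotent stem cell. They were taken as every gene whose symbol is Hoxa, Hoxb, Hoxc or Hoxd followed only by a number, which gave 39 of the 35773 genes in the files. On GRCm38, 11 of them lie in the Hoxa cluster (chr6:52155590-52260880), 10 in Hoxb (chr11:96194316-96368256), 9 in Hoxc (chr15:102921103-103036852) and 9 in Hoxd (chr2:74668310-74765142). PolyA RNA was sequenced in 18 samples, 3 in each group, and all groups carry the same label for strain (129S2/SvPasCrl) and genotype (wild type). ESCs were naive embryonic stem cells grown in 2i with LIF, the inhibitors of MEK and GSK3 that hold cells near the preimplantation state. AFSCs were primed cells derived from blastocysts in N2B27 with activin A and bFGF (FGF2), without feeders. ASCs were made from AFSCs by moving them to ABCL, which is N2B27 with activin A, BMP4, the GSK3 inhibitor CHIR99021 and LIF. ESC-ASCs were ESCs moved to the same ABCL medium. EpiLCs were epiblast-like cells, a step between the naive and the primed state, and EpiSCs were epiblast stem cells, the standard primed line. The study calls the samples of a group biological replicates. The labels do not say whether they came from separate cultures or lines, and the p-values below measure only the spread between these samples. The uniform strain and genotype labels differ from the paper, which derives AFSCs from crosses with transgenic reporter males of mixed background. It makes ASCs from reporter-bearing AFSCs and ESC-ASCs from established ESC lines. Whether the ESC samples were of those lines is not given.

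Hox genes encode homeodomain transcription factors that give cells their position along the head-to-tail axis. In the embryo they are switched on in the order in which they lie in each cluster, so that low-numbered (anterior) genes come on early and act toward the head and high-numbered (posterior) genes come on late and act toward the tail and in the limbs and genital region. Pluripotent cells are known to hold the clusters largely silent under Polycomb repression, and Cdx factors, Wnt signalling and retinoic acid are known activators. For the counts below, members numbered 1 to 3 are called anterior (8 genes), 4 to 8 central (15 genes) and 9 to 13 posterior (16 genes).

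Total counts per sample ranged from 4961934 to 9906473 in 5 groups and from 17813619 to 18071600 in ESC-ASCs, so that depth and group cannot be told apart for ESC-ASCs beyond what scaling removes. Replicate 1 stood apart from the other two samples in ESCs, ASCs, AFSCs and EpiLCs, with a chi-square per degree of freedom over genes of 19.6 to 92.1 against it and 1.61 to 10.97 between replicates 2 and 3, and values without single samples are given where they end a call. Normalized counts here are raw fragment counts divided by a DESeq2 size factor, which puts samples on a common depth, and values per kb are these divided by exonic length, the scale on which genes are compared with each other. The markers went with the labels: the summed level of 6 naive markers was 3808 to 4535 per kb in ASCs and 17.1 to 24.0 per kb in AFSCs, and all 6 core pluripotency markers were detected in every sample. Of 10 fibroblast markers, which would show feeder or differentiated cells, the summed level was lowest in EpiSCs (32.4 to 37.0 per kb), 53.2 to 121 in ESCs, 77.8 to 89.99 in ESC-ASCs, 105 to 148 in ASCs, 96.0 to 136 in AFSCs and highest in EpiLCs (135 to 164). Members of that list moved both ways. Between ESC-ASCs and ESCs 3 were called higher and 4 lower (*Col1a1*, *Col1a2*, *Col3a1* and *Dcn*; median log2 fold change -4.23 over the 7 tested), and between EpiSCs and ESCs 2 were higher and the same 4 lower (median -2.60). Their part in the Hox levels was not tested. Summed mesoderm markers (8 genes, of which 3 had enough counts to be tested) were 189.7 to 343 per kb in ASCs and 282.6 to 454 in EpiLCs. They were 101.6 to 112 in ESC-ASCs, 53.3 to 198 in AFSCs, 39.6 to 60.03 in ESCs and 24.0 to 41.1 in EpiSCs. *Msgn1* was at 0 in every group but AFSCs and *Mesp1* at 0 in ESCs, EpiLCs and AFSCs. The part of these markers in the Hox levels was not tested either. In bulk RNA, fewer cells that express a gene and less RNA per cell cannot be told apart.

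Hox RNA was most abundant in ESCs and ASCs, intermediate in ESC-ASCs and scarce in AFSCs and EpiSCs. The summed normalized count of all 39 genes was 662, 679.7 and 682 in the ESC samples and 563, 685 and 654 in the ASC samples. It was 234, 218 and 237 in ESC-ASCs and 113, 105 and 123 in EpiLCs. It was 59.3, 61.4 and 103 in AFSCs and 56.4, 55.5 and 46.8 in EpiSCs. ESC and ASC samples overlapped, whereas ESC-ASCs, EpiLCs, AFSCs and EpiSCs each lay below the group before in that order without overlap, with AFSC replicate 3 far above the other two AFSC samples. Even the highest member of each group was a gene of ordinary or low level: *Hoxc13* in ESCs, at 88.5 ± 0.935 per kb (SD, n = 3), lay at percentile 66.7 of the 16901 genes tested below, and *Hoxd13* in EpiLCs, at 8.53 ± 3.15 per kb, lay at percentile 25.7. No count at all was seen in any of 3 samples for 23 of the 39 genes in EpiSCs, 17 in AFSCs, 9 in ESC-ASCs, 7 in ESCs, 6 in EpiLCs and 2 in ASCs. A gene at 0 in a group may still have a level of up to 3 counts over the group, which is a mean normalized count of 0.499 in the deeper ESC-ASCs and of 1.02 to 1.33 elsewhere, for counting error only.

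**Figure D1:**
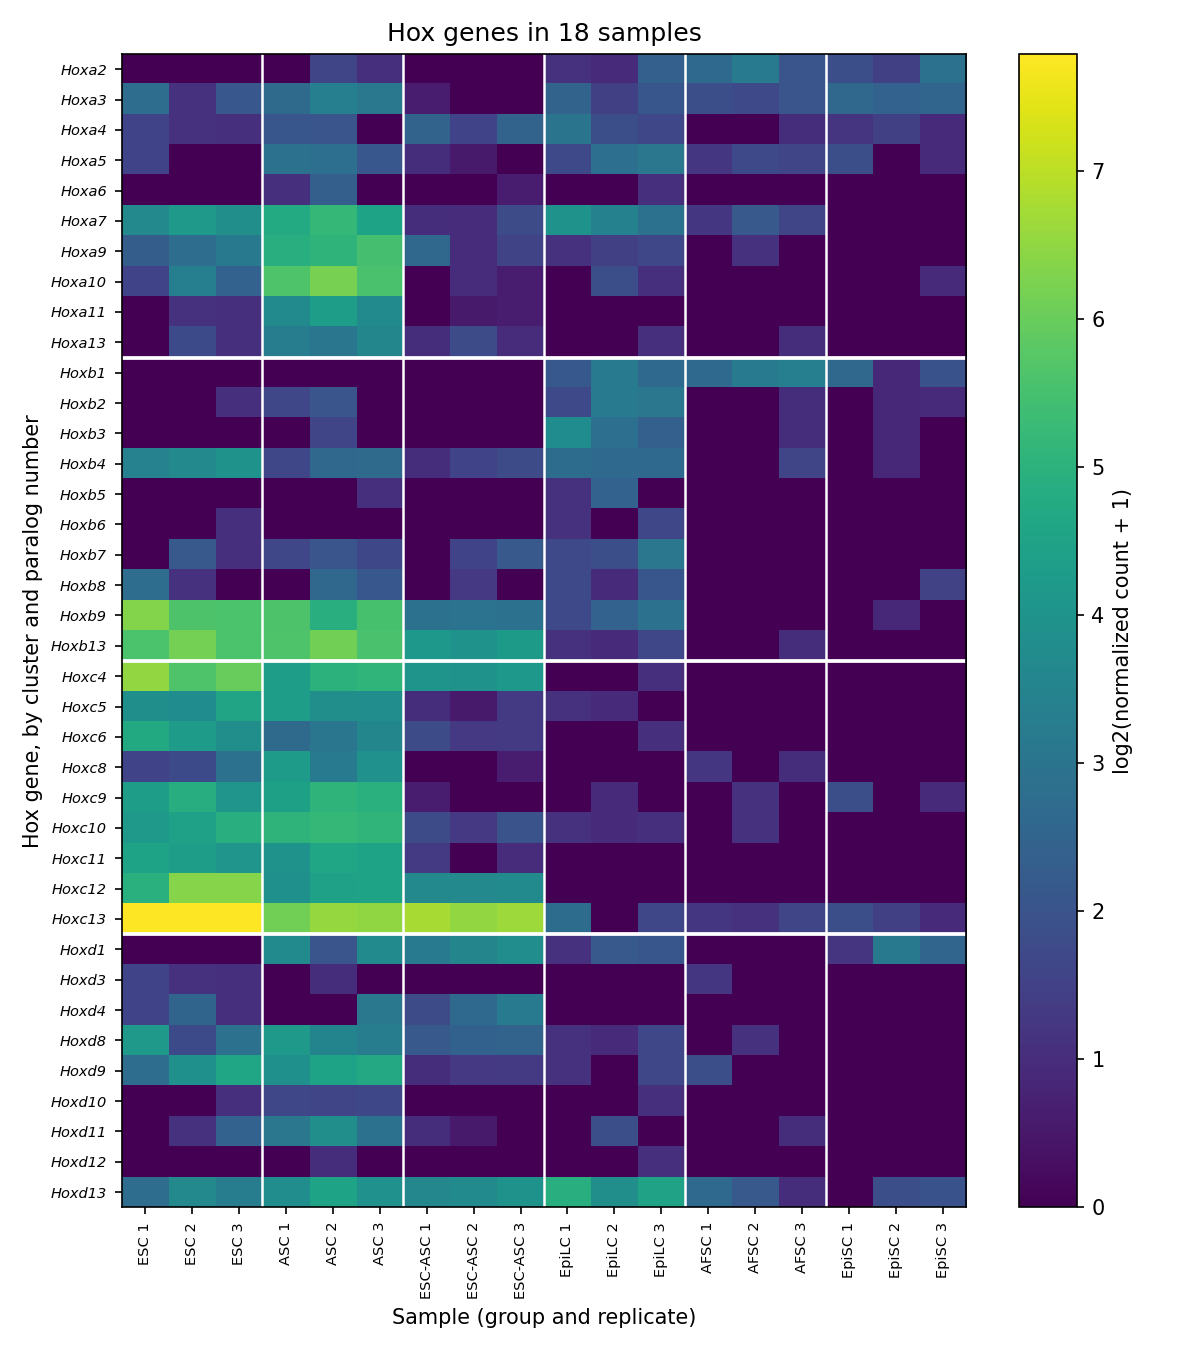
Heat map of log2(normalized count + 1) for 38 of the 39 Hox genes (rows, by cluster and paralog number) in the 18 samples (columns, by group and replicate). Hoxc genes and the posterior Hoxb genes are bright in ESCs and ASCs, the Hoxa genes from *Hoxa7* to *Hoxa11* are brightest in ASCs, and most rows are dark in AFSCs and EpiSCs.

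The clusters followed different orders. The Hoxc sum was 439, 449 and 466 in ESCs, 214, 264 and 268 in ASCs and 144, 122 and 135 in ESC-ASCs, and was at most 8.09 in any EpiLC, AFSC or EpiSC sample. These first 3 groups did not overlap, and the ESC mean was 151.8 times the EpiSC mean. The Hoxa sum was 181, 230.5 and 206 in ASCs, against 45.3 to 61.7 in ESCs, 41.8 to 82.9 in AFSCs, 38.1 to 42.8 in EpiLCs, 31.5 to 44.6 in EpiSCs and 30.2 to 38.4 in ESC-ASCs. ASCs were thus above every other sample for Hoxa, at 3.77 times the ESC mean and 3.64 times the AFSC mean, and the other 5 groups ranged from 30.2 to 82.9. The Hoxb sum was 112 to 144 in ESCs and 103 to 116 in ASCs, which overlapped, then 34.7 to 43.9 in EpiLCs, 24.3 to 30.7 in ESC-ASCs, 5.39 to 14.5 in AFSCs and 4.41 to 5.73 in EpiSCs. The Hoxd sum was highest in ASCs (65.8 to 76.8), with ESCs (33.5 to 46.9), ESC-ASCs (27.3 to 41.7) and EpiLCs (20.4 to 32.4) below, and AFSCs (2.07 to 9.43) and EpiSCs (1.31 to 10.6) lowest. No test was run on these sums.

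**Figure D2:**
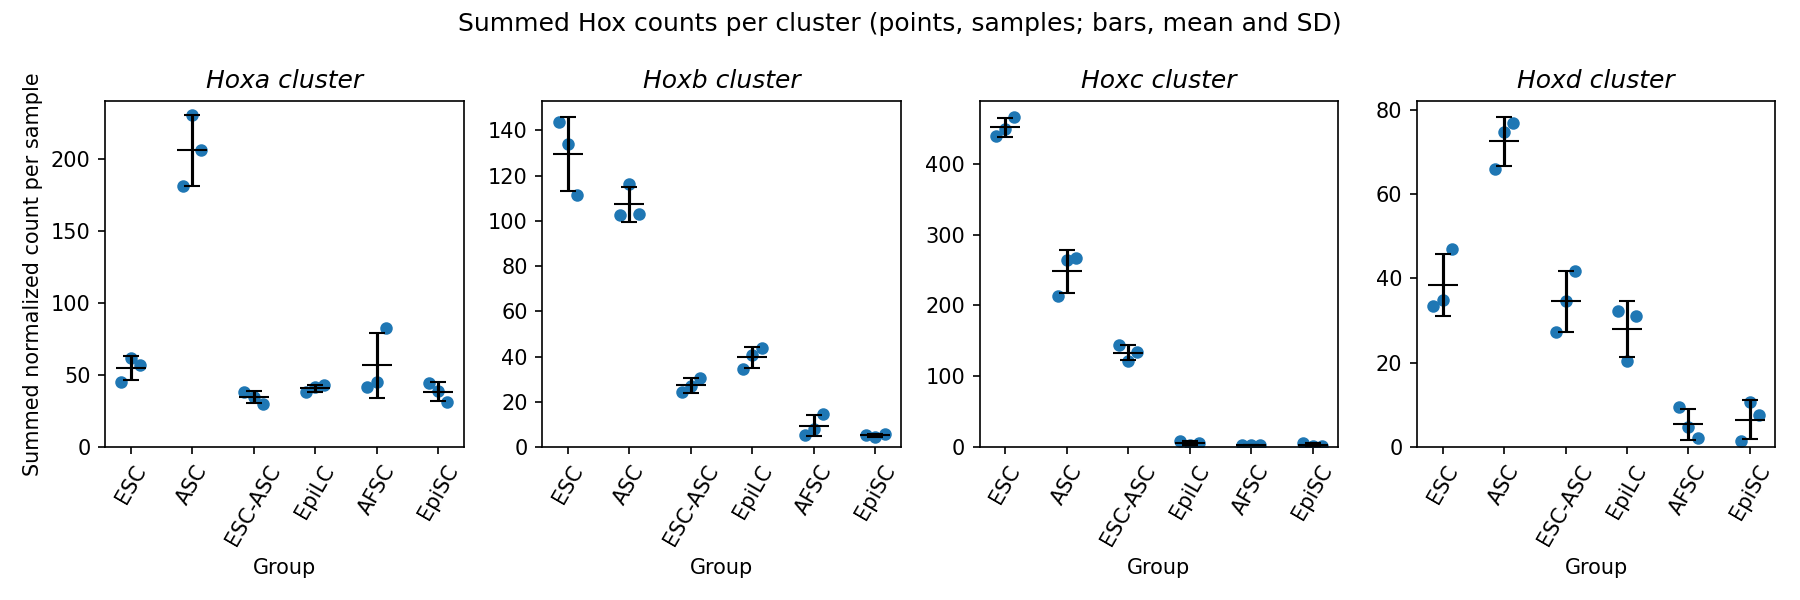
Summed normalized counts per sample for each of the 4 Hox clusters (y axes start at 0 and differ between panels), with 3 samples per group as points and the mean and SD as bars. Hoxc is highest in ESCs (439 to 466), Hoxa and Hoxd are highest in ASCs (181 to 230.5 and 65.8 to 76.8), and Hoxb is about as high in ASCs as in ESCs.

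By position in the cluster, posterior genes made up 73.7% of the summed normalized Hox counts in ESCs, 69.5% in ASCs and 68.5% in ESC-ASCs. They made up 32.4% in EpiLCs, 10.6% in AFSCs and 10.2% in EpiSCs, where anterior genes made up 80.7% and 83.2%. These are shares of counts and so also reflect gene length. In absolute terms the anterior sum was 25.6 to 30.1 in ESCs and 45.8 to 88.0 in AFSCs. The primed cells thus stood below ESCs in the central and posterior sums and not in the anterior sum. Not all anterior members shared in that sum, since *Hoxb2*, *Hoxb3* and *Hoxd3* each had 1 raw count over the AFSC samples. The central sum was 124.5 to 183 in ESCs and 2.64 to 3.94 in EpiSCs, and the posterior sum was 453 to 529.5 in ESCs and 5.25 to 5.73 in EpiSCs.

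Tests were made with edgeR's quasi-likelihood test on the raw counts, with Benjamini-Hochberg adjustment over all 16901 genes tested, and a gene was called at an adjusted p below 0.05. Genes entered the test if 3 or more samples held 10 or more counts. That left 18 of the 39 Hox genes, and many of them passed that filter only through the group in which they are high and so had to differ somewhere. In all 3 samples of a group, 10 or more counts were reached by 16 Hox genes in ASCs, 8 in ESCs, 8 in ESC-ASCs and 1 each in EpiLCs, AFSCs and EpiSCs. Counts and medians over the tested members in comparisons with EpiLCs, AFSCs or EpiSCs therefore had a direction that was largely fixed by the filter, and are given as a description. The same holds in part for ESC-ASCs against ASCs and against ESCs, and largely for the difference between starting cells. All 18 were called for any difference among the 6 groups, as were 94.4% of all genes tested, so that count says nothing particular about Hox genes. The other 21 had too few counts and are described by their levels only.

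Other members had too few counts to be tested. *Hoxb4*, a regulator of blood progenitors, had 9.85, 11.6 and 14.5 normalized counts in ESCs, above the 2.16 to 5.48 of ASCs, the 1.01 to 2.51 of ESC-ASCs and the 5.31 to 5.78 of EpiLCs, without overlap. *Hoxd4* had raw counts of 5, 11 and 16 in ESC-ASCs, 1, 4 and 1 in ESCs, 0, 0 and 7 in ASCs and 0 in the other 9 samples, and shares 39.1% of its exonic length with *Gm28230*. *Hoxd8* had 16, 10 and 8 raw counts in ASCs and 9, 2 and 6 in ESCs, and *Hoxa5* 6, 6 and 3 in ASCs and 2, 7 and 7 in EpiLCs against 1, 0 and 0 in ESCs. *Hoxa3* and *Hoxa4* reached at most 9 counts in any sample and *Hoxb7* at most 7. *Hoxa6*, *Hoxb5*, *Hoxb6*, *Hoxb8*, *Hoxd3*, *Hoxd10* and *Hoxd12* reached at most 5.

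Between ASCs and ESCs the share of the tested members that was called lay near that of all genes. Of the 39 genes, 6 were called higher in ASCs (among them *Hoxa7*, *Hoxa9*, *Hoxa10*, *Hoxa11* and *Hoxd1*) and 4 lower (*Hoxc4*, *Hoxc6*, *Hoxc12* and *Hoxc13*), where 26.4% and 23.9% of all genes tested were called higher and lower (50.3% in either direction). The 10 calls among the 18 tested thus say little about Hox genes as a group, and the members are described one by one. All called Hoxa genes were higher and all called Hoxc genes were lower, and neither Hoxb member tested was called. The median log2 fold change of the 18 was 0.36, against 0.02 for all genes tested.

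*Hoxa9*, known for its role in blood progenitors, had normalized counts of 3.94, 5.82 and 7.81 in ESCs and 29.1, 32.2 and 43.9 in ASCs. *Hoxa10*, which patterns the lumbar spine and the uterus, had 1.97, 9.31 and 4.46 in ESCs and 48.5, 71.7 and 46.1 in ASCs. *Hoxa9* reached 10 counts in every sample of a group in ASCs alone, and so passed the filter largely through the group in which it is high. *Hoxa10* reached 10 counts in the ASC samples alone, and so entered the test only through that group. In both genes every ASC sample lay above every ESC sample. The log2 fold changes were 2.47 ± 0.44 (SE, adjusted p = 0.000199 by edgeR's quasi-likelihood test) for *Hoxa9* and 3.24 ± 0.47 (adjusted p = 2.52e-05) for *Hoxa10*. *Hoxa7*, a central gene, was called too, at 0.91 ± 0.35 (adjusted p = 0.0376, edgeR), with 25.9, 35.3 and 21.9 in ASCs over 11.8, 17.5 and 13.4 in ESCs. *Hoxa7* shares 20.4% of its exonic length with *Hoxaas3* on the opposite strand, and strand was not used in counting. *Hoxaas3* had raw counts of 7, 14 and 6 in ASCs and 5, 3 and 1 in ESCs.

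*Hoxa11*, which shapes the forearm and the kidney, had raw counts of 11, 19 and 11 in ASCs and 0, 1 and 1 in ESCs, and it too entered the test through ASCs alone. Its normalized level was 16.6-fold higher in ASCs, with a counting interval of 4.30 to 141 (95%, exact). The files hold a partner on the opposite strand, *Hoxa11os*, which shares 800 exonic bases with it (35.0% of its exonic length), and since counting did not use strand the fragments of the pair cannot be told apart there. *Hoxa11os* had 14, 15 and 14 counts in ASCs, where no other sample had more than 2. *Hoxd1*, which acts in sensory neurons, had raw counts of 11, 3 and 11 in ASCs and 0 in each ESC sample, so that it was at least 6.73-fold higher in ASCs by a floor of 3 counts over the ESC group.

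*Hoxc13*, known for hair and nail keratins, was the most abundant Hox gene per kb in ESCs, ASCs and ESC-ASCs. Its normalized counts were 219, 215 and 219.8 in ESCs and 69.0, 92.4 and 89.9 in ASCs, a log2 fold change of -1.40 ± 0.23 (adjusted p = 5.18e-05, edgeR). *Hoxc12*, its neighbour, had 29.5, 82.6 and 81.4 in ESCs and 14.03, 20.8 and 21.9 in ASCs (log2 fold change -1.84 ± 0.37, adjusted p = 0.00109, edgeR). ESC replicate 1 was well below the other ESC samples for this gene and still above all ASC samples. *Hoxc4*, at the other end of the cluster, fell by 1.26 on the log2 scale, from 90.6, 48.9 and 62.5 to 19.4, 31.1 and 32.9. *Hoxc6* fell by 1.25, from 25.6, 18.6 and 13.4 to 5.39, 7.27 and 10.97.

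The other 4 Hoxc members tested did not pass between ASCs and ESCs. *Hoxc5*, which lies between *Hoxc4* and *Hoxc6*, was 15.4 ± 3.52 in ASCs and 16.3 ± 5.23 in ESCs (normalized counts, SD, n = 3). *Hoxc9* was 27.4 ± 6.14 in ASCs and 21.1 ± 6.27 in ESCs, *Hoxc10* 33.5 ± 1.56 and 22.6 ± 5.81, and *Hoxc11* 19.96 ± 4.23 and 19.0 ± 3.09. Only *Hoxc10* of these had samples that did not overlap. The posterior Hoxb pair overlapped as well, with *Hoxb13* at 54.4 ± 12.3 in ASCs and 54.7 ± 13.2 in ESCs and *Hoxb9* at 40.5 ± 9.98 and 58.4 ± 19.3. Among untested genes, *Hoxa13* (raw counts 8, 7 and 10 in ASCs; 0, 2 and 1 in ESCs), *Hoxc8* (17, 8 and 13; 1, 2 and 6) and *Hoxd11* (7, 13 and 6; 0, 1 and 4) lay higher in every ASC sample. Over all 39 genes, 13 had every ASC sample above every ESC sample and 6 the reverse, against 30.0% and 25.7% of all genes tested.

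Of these 10 calls, 6 remained without ASC replicate 1 and 6 without ASC replicate 2, since *Hoxa10* and *Hoxa11* then had too few samples with 10 counts to be tested and *Hoxa7* and *Hoxc6* missed the threshold (log2 fold change 0.96 and 0.70 for *Hoxa7*, -1.04 and -1.19 for *Hoxc6*). *Hoxa7* missed it also without ESC replicate 1 (0.81) or 3 (0.85), *Hoxc6* also without ESC replicate 1 (-1.05) or 2 (-1.24), and ASC replicate 3 is needed for *Hoxa10* and *Hoxa11* to be tested. The calls of *Hoxa7* and *Hoxc6* were lost by DESeq2 and without the filter on low counts as well.

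**Figure D3:**
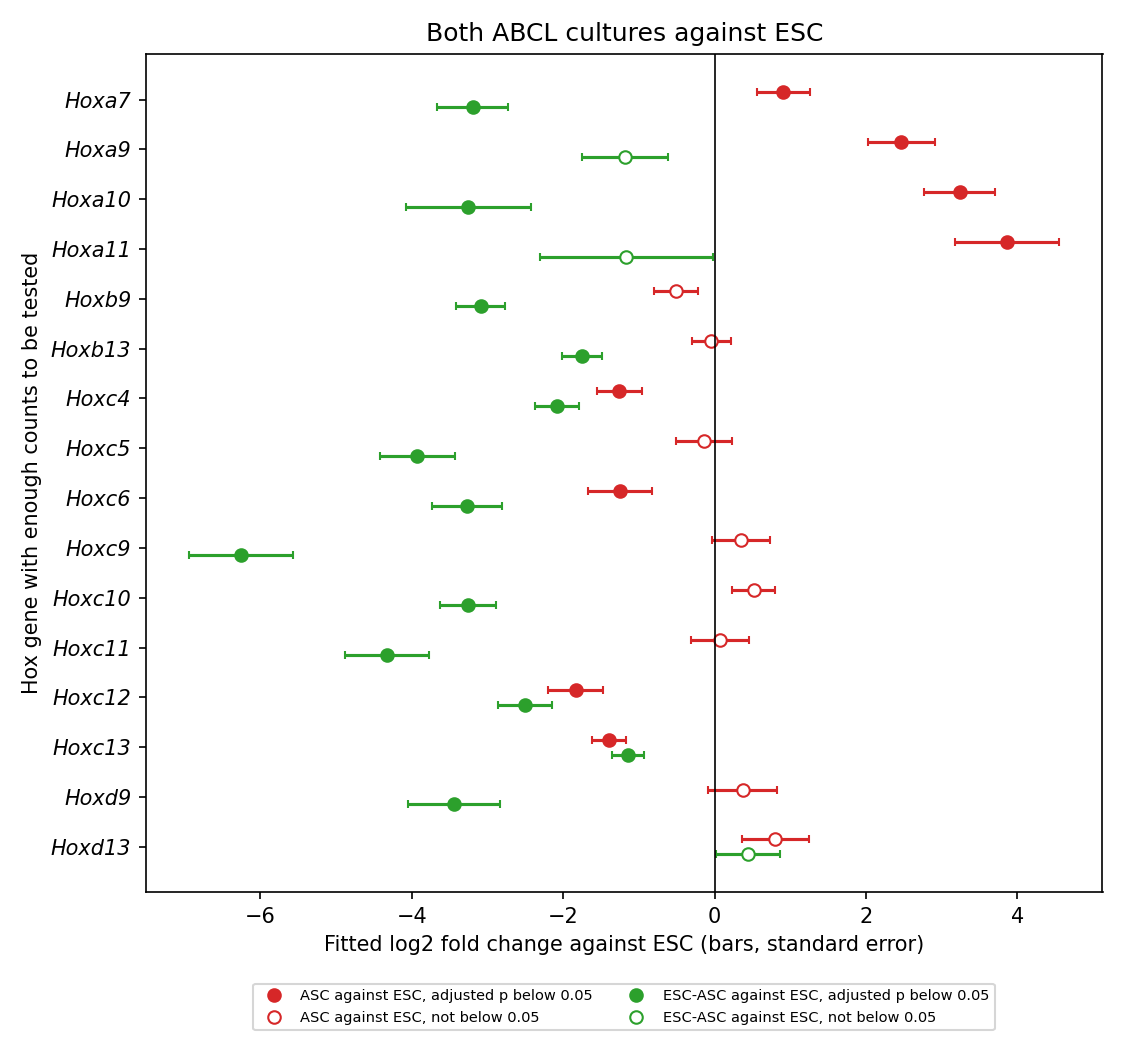
Fitted log2 fold changes with standard errors against ESCs for 16 of the 18 Hox genes tested (*Hoxd1*, at 0 counts in ESCs, is among those left out), for ASCs (red) and ESC-ASCs (green); filled points passed an adjusted p of 0.05. In ASCs the Hoxa genes shown lie right of 0 and *Hoxc4*, *Hoxc6*, *Hoxc12* and *Hoxc13* left of it, while in ESC-ASCs nearly all genes lie left of 0.

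The start regions of 4 genes that carry these differences are printed from RefSeq (GRCm38.p6), each from 250 bases before to 50 bases after the start in the direction of the gene, with CpG dinucleotides, the sites at which promoters can be methylated, in capitals. *Hoxa10* (the more upstream of its windows, chr6:52240805-52241104, minus strand) and *Hoxa11* (chr6:52245761-52246060, minus strand) stand for the genes higher in ASCs, *Hoxc4* (chr15:103034145-103034444, plus strand) for those lower, and *Hoxd1* (chr2:74762730-74763029, plus strand) for the gene present in both ABCL cultures and at 0 in ESCs.
Hoxa10: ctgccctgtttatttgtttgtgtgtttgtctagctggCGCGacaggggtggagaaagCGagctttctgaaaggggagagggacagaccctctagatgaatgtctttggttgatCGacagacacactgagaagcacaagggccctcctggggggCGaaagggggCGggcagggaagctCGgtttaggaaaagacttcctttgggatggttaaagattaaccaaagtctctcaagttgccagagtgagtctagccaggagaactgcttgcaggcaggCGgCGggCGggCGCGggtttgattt
Hoxa11: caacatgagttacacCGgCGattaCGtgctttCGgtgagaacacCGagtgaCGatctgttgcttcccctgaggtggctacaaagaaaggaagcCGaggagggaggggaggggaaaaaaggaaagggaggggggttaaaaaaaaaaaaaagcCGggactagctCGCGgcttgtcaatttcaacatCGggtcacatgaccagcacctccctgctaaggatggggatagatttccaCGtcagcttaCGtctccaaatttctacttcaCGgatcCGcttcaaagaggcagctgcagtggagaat
Hoxc4: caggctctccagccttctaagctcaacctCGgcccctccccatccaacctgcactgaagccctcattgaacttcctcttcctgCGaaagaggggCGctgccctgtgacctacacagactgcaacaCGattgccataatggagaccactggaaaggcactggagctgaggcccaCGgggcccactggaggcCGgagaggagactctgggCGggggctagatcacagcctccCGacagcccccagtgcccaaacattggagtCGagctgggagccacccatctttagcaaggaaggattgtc
Hoxd1: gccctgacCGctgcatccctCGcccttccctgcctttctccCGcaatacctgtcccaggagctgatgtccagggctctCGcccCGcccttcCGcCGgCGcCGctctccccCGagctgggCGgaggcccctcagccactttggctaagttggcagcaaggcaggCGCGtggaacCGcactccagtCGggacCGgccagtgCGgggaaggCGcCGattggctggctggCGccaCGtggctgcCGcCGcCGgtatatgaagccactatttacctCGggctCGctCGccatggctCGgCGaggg
*Hoxd1* holds 29 CpGs in its 300 bases, *Hoxa11* 15, *Hoxa10* 12 and *Hoxc4* 9. The ratio of CpGs observed to those expected from base composition was 0.805, 0.787, 0.596 and 0.333 in that order. *Hoxc4* alone of these lay below the median of all 32851 windows (0.384), and it was the only Hoxc gene with a window. *Hoxa9* (0.28) and *Hoxa7* (0.405) were also called higher in ASCs, so the genes printed do not stand for a difference in CpG content. The other window of *Hoxa10* (chr6:52234890-52235189, minus strand) holds 21 CpGs, with a ratio of 0.853. RefSeq windows were found for 22 of the 39 genes (24 windows), with a median ratio of 0.626 (0.257 to 1.02), and 12 of the 24 reached 0.6, as did 35.8% of all windows. Motifs were searched on both strands. The TCF/LEF core CTTTGAT was found in *Hoxd8* alone, with 2 matches, and in 3.73% of all windows. The CDX core CAATAAA was found in *Hoxb8* and *Hoxd4*, and in 4.6% of all windows. A direct repeat of the retinoic acid receptor core site AGGTCA was searched at a fixed spacing only, without mismatches. It was found in none of the 24 windows, and in 0.00913% of all windows. Other spacings were not searched.

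Between AFSCs and ASCs the tested members of all clusters were compared, most of which passed the filter through ASCs. Of the 39 genes, 17 were called higher in ASCs than in AFSCs, where 32.8% of all genes tested were higher, and 0 lower, where 31.2% were lower (64.0% in either direction). At an unadjusted p under 0.05 edgeR likewise gave 17 higher and 0 lower, and DESeq2 gave 17 and 0. Without the filter on low counts 25 were higher and 2, *Hoxa2* and *Hoxb1*, lower. The median log2 fold change of the 18 tested was 6.19, or 4.29 with the genes at 0 in AFSCs set to their bound, against 0.02 for all genes.

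*Hoxc13* rose from 1.35, 1.16 and 2.07 normalized counts in AFSCs to 69.0, 92.4 and 89.9 in ASCs (log2 fold change 5.63 ± 0.42, adjusted p = 1.47e-09, edgeR). *Hoxb13*, known from the prostate and tail, had 1 count over the 3 AFSC samples and 153 over the 3 ASC samples, a 140.5-fold difference with a counting interval of 24.8 to 5583. *Hoxa10* and *Hoxb9* were at 0 in all AFSC samples, and were at least 47.7-fold and 34.6-fold higher in ASCs. In each case no AFSC sample came near an ASC sample. *Hoxd13*, which patterns the digits, differed least of the called genes, with 12.9, 21.8 and 14.3 in ASCs over 5.39, 3.47 and 1.04 (log2 fold change 2.32 ± 0.53, adjusted p = 0.000907, edgeR).

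*Hoxb1* and *Hoxa2*, both needed in the hindbrain, ran the other way at low counts. *Hoxb1* had 4, 7 and 9 raw counts in AFSCs, 3, 9 and 5 in EpiLCs and 4, 1 and 3 in EpiSCs. It had 0 in all 9 ESC, ASC and ESC-ASC samples. *Hoxa2* had 4, 7 and 3 in AFSCs and 2, 2 and 7 in EpiSCs, against 0, 2 and 1 in ASCs and 0 in all ESC and ESC-ASC samples. Over all 39 genes, 26 had every ASC sample above every AFSC sample and 2 the reverse, against 33.7% and 28.9% of all genes tested.

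Against EpiSCs, where the same limit holds, 16 of the 39 genes were called higher in ASCs and 0 lower, where 35.9% and 30.7% of all genes tested were called (66.5% in either direction). At an unadjusted p under 0.05 the counts were 17 and 0, by DESeq2 16 and 0, and without the filter 25 and 1, the last being *Hoxb1*. *Hoxd1* (9.02 ± 5.11 against 4.67 ± 3.31 normalized counts, adjusted p = 0.232, edgeR) did not pass. Every ASC sample lay above every EpiSC sample for 26 of the 39 genes and below for 1, against 38.5% and 33.6% of all genes tested. ASCs are the same samples in the comparisons with ESCs, AFSCs and EpiSCs, which are therefore not independent.

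Hox counts were lower in ESC-ASCs than in the ESC samples, which may not be of the parental lines. Of the 39 genes, 13 were called lower in ESC-ASCs than in ESCs, where 29.6% of all genes tested were lower, and 1, *Hoxd1*, higher, where 30.6% were higher (60.1% in either direction). The median log2 fold change of the 18 tested was -2.80, against 0.03 for all genes. *Hoxc6*, *Hoxc9* and *Hoxc11* reached 10 counts in every ESC sample but not in every ESC-ASC sample. The direction of these counts and of the median was thus in part fixed by the filter. *Hoxc9*, which marks thoracic identity, had raw counts of 10, 24 and 14 in ESCs and 1, 0 and 0 in the more deeply sequenced ESC-ASCs, a 127.5-fold difference with a counting interval of 21.8 to 5141. *Hoxb9* went from 80.7, 47.7 and 46.9 normalized counts in ESCs to 6.57, 6.84 and 6.54 in ESC-ASCs (log2 fold change -3.09 ± 0.32, adjusted p = 3.61e-07, edgeR). *Hoxc11* fell by 4.33 on the log2 scale, *Hoxc5* by 3.92 and *Hoxc10* by 3.26. No sample of either group overlapped for these genes.

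*Hoxc13* was reduced least among the 13, from 219, 215 and 219.8 to 109, 91.3 and 98.5 (log2 fold change -1.14 ± 0.22, adjusted p = 0.000151, edgeR). It then stood at 40.4 ± 3.54 per kb of 103 ± 4.68 for all Hox genes in ESC-ASCs. *Hoxd1* had 16, 22 and 26 raw counts in ESC-ASCs and 0 in ESCs, at least 8.03-fold higher by normalized level. With the ESC-ASC counts thinned to 7785262 per sample, *Hoxd1* no longer had enough counts to be tested and 14 genes were called lower, with *Hoxa9* added. *Hoxd13* (12.6 ± 1.77 against 8.82 ± 2.87 normalized counts) did not pass, and its samples overlapped. Over all 39 genes, 17 had every ESC-ASC sample below every ESC sample and 1 the reverse, against 32.8% and 37.0% of all genes tested.

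ESC-ASCs and ASCs, grown in the same medium from different cells, differed in 14 of the 39 genes, all lower in ESC-ASCs, where 27.7% of all genes tested were lower and 23.0% higher (50.7% in either direction). At an unadjusted p under 0.05 the counts were 14 lower and 0 higher, also by DESeq2, and without the filter 21 and 0. Large differences lay in the Hoxa and the Hoxc cluster. *Hoxa10* was 48.5, 71.7 and 46.1 in ASCs and 0, 0.977 and 0.503 in ESC-ASCs, 111.6-fold (counting interval 37.5 to 547) apart, and *Hoxa9* was 29.1, 32.2 and 43.9 against 5.05, 0.977 and 2.01 (log2 fold change -3.65 ± 0.41, adjusted p = 1.80e-06, edgeR). *Hoxc9* was 165-fold lower with a counting interval of 28.8 to 6613. *Hoxc12* (log2 fold change -0.67 ± 0.39), *Hoxc13* (0.25 ± 0.22), *Hoxd1* (0.25 ± 0.47) and *Hoxd13* (-0.36 ± 0.37) did not pass. The call of *Hoxc4* (-0.82 ± 0.31, adjusted p = 0.0384, edgeR) was lost with thinned ESC-ASC counts (-0.89), without the filter on low counts (-0.80) and on leaving out ASC replicate 2 or 3 or any ESC-ASC sample (-0.69 to -0.85). Over all 39 genes, 22 had every ESC-ASC sample below every ASC sample and 0 the reverse, against 32.9% and 30.6% of all genes tested.

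The change on moving to ABCL was then compared between both starting cells, as (ASC minus AFSC) minus (ESC-ASC minus ESC), which shares no samples between its arms. The ESC samples may not be of the lines that gave ESC-ASCs, and ESC-ASCs were sequenced more deeply. Line and depth thus cannot be told apart from a change on moving to ABCL in that arm. Of the 39 genes, 16 differed, all more positive from AFSCs, where 30.8% of all genes tested were more positive and 27.7% more negative (58.5% in either direction). All of these but *Hoxc6* reached 10 or more counts in every ASC sample, and *Hoxc6* did in every ESC sample. Both groups enter the difference with a plus sign, so its direction was largely fixed by the filter and is given as a description. No Hox gene was more negative, also at an unadjusted p under 0.05, by DESeq2 (16 and 0) and without the filter (23 and 0). For *Hoxc13* the difference was 6.77 ± 0.48 on the log2 scale (adjusted p = 6.32e-10, edgeR), made of a rise of 5.63 from AFSCs and a fall of 1.14 from ESCs. No difference could be estimated for *Hoxd1*, which was at 0 in both starting cells and present in both ABCL cultures.

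The formative and primed cells were compared with ESCs, and since the tested members passed the filter largely through ESCs and the ABCL cultures, the direction of these counts was largely fixed by it. Of the 39 genes, 12 were called lower and 2 higher in EpiLCs than in ESCs (26.6% and 28.7% of all genes tested, 55.3% in all), 15 lower and 1 higher in AFSCs (30.8% and 29.7%, 60.5% in all) and 15 lower and 1 higher in EpiSCs (32.0% and 29.2%, 61.2% in all). The call higher in AFSCs was lost without AFSC replicate 3 and without any 1 of the ESC samples. Without overlap of samples, 18 lay below and 8 above ESCs in EpiLCs (28.8% and 31.5% of all genes tested), 20 below and 3 above in AFSCs (30.6% and 28.8%) and 20 below and 3 above in EpiSCs (34.0% and 32.8%). These comparisons share the ESC samples. *Hoxc12* and *Hoxc11* were at 0 in all 9 EpiLC, AFSC and EpiSC samples, which put *Hoxc12* at least 68.6-fold, 60.2-fold and 68.9-fold below ESCs in that order. *Hoxc13* fell by 6.43, 7.02 and 6.92 on the log2 scale. *Hoxb13* had 4 counts over the EpiLC samples, 1 over AFSCs and 0 over EpiSCs, against 126 over ESCs.

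*Hoxd13* had 28.9, 13.3 and 21.4 normalized counts in EpiLCs over 5.91, 11.6 and 8.92 in ESCs (log2 fold change 1.17 ± 0.43, adjusted p = 0.0264, edgeR), and was the highest EpiLC member per kb. *Hoxa7* was 15.02, 9.73 and 6.42 in EpiLCs, near the 11.8 to 17.5 of ESCs, and was at 0 in every EpiSC sample. *Hoxb3*, a hindbrain gene, had 11, 7 and 4 raw counts in EpiLCs and at most 2 in any other sample, and *Hoxb2* had 2, 9 and 7. *Hoxb3os*, on the opposite strand, had 13, 13 and 9 raw counts in EpiLCs and shares 52.9% of the exonic length of *Hoxb3* and 27.3% of that of *Hoxb2*, and strand was not used. Leaving out 1 sample ended the EpiLC calls of *Hoxd13* (EpiLC replicate 1 or 3, ESC replicate 1 or 3; 0.88 to 1.16), *Hoxd1* (any ESC sample, EpiLC replicate 2 or 3; 4.35 to 4.67) and *Hoxa9* (any EpiLC sample, ESC replicate 2 or 3; -1.95 to -1.51), the last also with the replicate block (-1.76), by DESeq2 (-1.83) and without the filter on low counts (-1.80).

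*Hoxd13* was called lower in AFSCs (-1.52 ± 0.60, adjusted p = 0.0363, edgeR), which was lost without AFSC replicate 2 or 3 or ESC replicate 2 or 3 (-1.60 to -1.05), and the lower *Hoxa10* of EpiSCs was lost without ESC replicate 2 (-3.01). Between the primed groups, 2 of the 39 were called, *Hoxd1* higher in EpiSCs (1, 9 and 5 raw counts against 0, 0 and 0; 17.8% of all genes tested were higher) and *Hoxa7* lower (0, 0 and 0 against 1, 3 and 2; 21.6% were lower).

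The Cdx genes, ParaHox relatives that activate central and posterior Hox genes in the embryo, had orders of their own. *Cdx1* was 429, 806 and 706 in ASCs, 236 to 248 in ESCs, 61.5 to 88.5 in ESC-ASCs, 23.9 to 31.5 in EpiSCs, 2.14 to 4.62 in EpiLCs and 0 in all AFSC samples. *Cdx2* was 161.5, 253 and 229.8 in ESCs, 92.8, 125 and 129 in ASCs, while no sample of the other groups exceeded 12.4. *Cdx1* was called higher in ASCs than in ESCs (log2 fold change 1.41 ± 0.20, adjusted p = 2.34e-05, edgeR) and *Cdx2* lower (-0.93 ± 0.26, adjusted p = 0.00610). Both fell from ESCs to ESC-ASCs, *Cdx1* by 1.63 and *Cdx2* by 7.85 on the log2 scale. Of the 6 genes in this list 3 were tested, and *Gsx2* was the other, with 17.7 ± 1.75 in ESC-ASCs and at most 1.66 on average elsewhere.

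Of 28 neighbours of the clusters in the files 10 were tested. Between ASCs and ESCs 4 were called higher (*Halr1*, *Hoxa11os*, *Evx1* and *Lnpk*) and 2 lower (*Skap2* and *Snx10*), beside 26.4% and 23.9% of all genes tested. *Halr1*, a noncoding RNA beside the Hoxa cluster, was at 1.97, 0 and 0 in ESCs, 89.6, 57.1 and 47.2 in ASCs, 14.2, 23.5 and 22.1 in ESC-ASCs and 46.9 to 50.3 in EpiLCs, so its EpiLC level was near that of ASCs, while the Hoxa sum of EpiLCs was below that of ESCs. *Evx1*, the homeobox gene at the posterior end of the Hoxa cluster, was 34.5, 37.4 and 51.6 in ASCs and 44.6, 51.1 and 49.6 in EpiSCs, against 3.94 to 13.97 in ESCs and at most 1.16 in ESC-ASCs and EpiLCs. In EpiSCs it was thus about as high as in ASCs while *Hoxa9*, *Hoxa11* and *Hoxa13* were at 0.

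**Figure D4:**
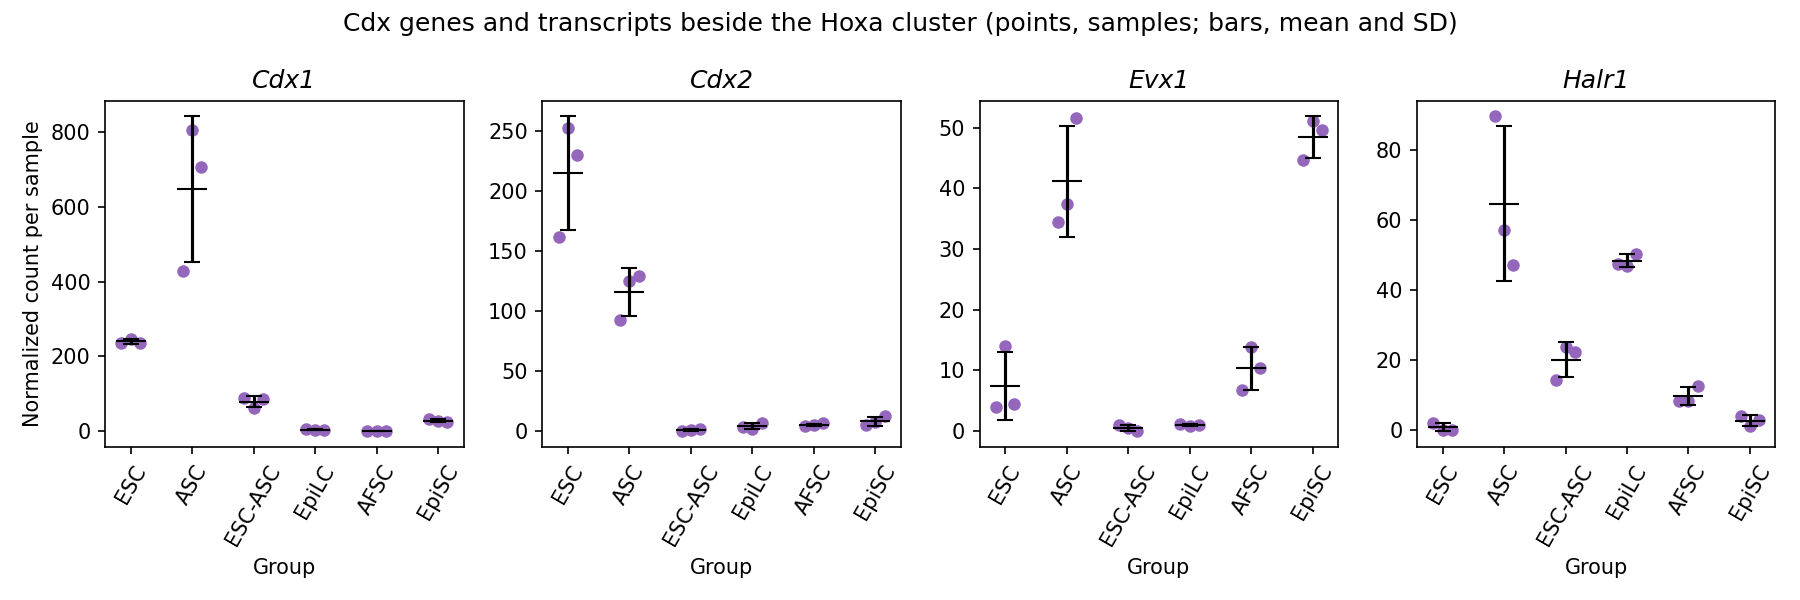
Normalized counts per sample of *Cdx1*, *Cdx2* and the Hoxa neighbours *Evx1* and *Halr1* (y axes differ between panels), with 3 samples per group as points and the mean and SD as bars. *Cdx1* is highest in ASCs (429 to 806), *Cdx2* in ESCs (161.5 to 253), *Evx1* is high in ASCs and EpiSCs, and *Halr1* in ASCs and EpiLCs.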

How the data were processed

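PolyA RNA of 18 samples, 3 in each of 6 groups, was sequenced. Per the labels, the methods and the file headers, the authors mapped reads to GRCm38 with TopHat2 (1 mismatch) and deposited counts per gene from featureCounts 1.5.0-p1 (Ensembl 86, overlap of at least 10 bases, strand not used, multi-mapping and overlapping reads counted). Some deposited files name AFSC samples as ASC and ASC samples by their medium; the GEO labels were followed. Symbols were found for 35514 of 35773 genes. The members and gene lists were chosen with earlier results of these data known. The 16901 genes that reached 10 counts in 3 or more samples were tested in 1 fit of all samples with edgeR 4.0.16 (TMM, quasi-likelihood, adjusted p below 0.05; R 4.3.3), and normalized counts used DESeq2 1.42.0 size factors. Counts and sums over the members cover all 39 genes, of which 1 is not reported on its own here. The text names members that passed, gives the others by level, and names genes outside the clusters from lists of Cdx and ParaHox genes, TALE partners, cluster neighbours, chromatin regulators, retinoic acid genes and cell type markers. Alternatives were DESeq2, other size factors, no filter, a replicate block, single samples left out, fits of only the groups compared and thinned ESC-ASC counts. Deviations from the group means correlated above 0.1 in every same-numbered pair of AFSCs and ESCs (0.511, 0.298 and 0.295). The same held for EpiLCs and ESCs (0.462, 0.178 and 0.252). Unlike-numbered pairs of replicates 2 and 3 did so too, at 0.215 and 0.222 for AFSCs and 0.268 and 0.233 for EpiLCs against ESCs. These values thus cannot tell pairing by number from replicate 1 standing apart. Replicate numbers were still taken to pair these groups, as read from the data alone. The other comparisons had a same-numbered pair at or below 0.1. The test was checked on simulated data, but the outcome is not given here and no result above rests on it.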

Additional observations from a re-analysis of the deposited data

Results flagged for a closer look

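The change on moving to ABCL differed by starting cell for 16 Hox genes and for 58.5% of all genes tested. Of all genes tested, 30.8% were more positive from AFSCs and 27.7% more negative. This was a test of the difference itself in edgeR's fit (AFSC to ASC minus ESC to ESC-ASC, log2). These 16 Hox genes passed the filter on low counts largely through ASCs or ESCs, which enter with a plus sign. Their shared positive direction was thus largely fixed by the filter. The ESC samples may not be of the lines that gave ESC-ASCs, which were also sequenced more deeply. Line and depth thus cannot be told apart from the medium in that arm. In the Hoxa cluster the difference was 6.68 for *Hoxa7*, 7.29 for *Hoxa9*, 12.15 for *Hoxa10* and 8.15 for *Hoxa11*. In Hoxb it was 11.53 for *Hoxb9* and 8.49 for *Hoxb13*. In Hoxc it was 9.99 for *Hoxc4*, 10.98 for *Hoxc5*, 9.37 for *Hoxc6*, 12 for *Hoxc9*, 9.30 for *Hoxc10*, 11.76 for *Hoxc11*, 9.86 for *Hoxc12* and 6.77 for *Hoxc13*. In Hoxd it was 7.93 for *Hoxd9* and 1.88 for *Hoxd13*. Where a group was at 0 counts the fitted size depends on the prior count and is not a measured fold. The call of *Hoxd13* was lost without ASC replicate 2 (1.62), AFSC replicate 3 (1.41), ESC replicate 2 (1.63) or ESC-ASC replicate 1 (1.78).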

How the results depend on the processing

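No result reversed under any alternative run, and every cluster sum moved by less than 1 SD under other scaling and thinning. Leaving out 1 of 3 samples cannot move a group mean by 1 SD, so that check says nothing about the sums. Without the filter on low counts 27 members were called between ASCs and AFSCs, 26 between ASCs and EpiSCs and 32 for any difference. With only the groups compared in the fit, 9 were called for ESC-ASCs against ESCs, 9 for EpiLCs against ESCs, 8 for AFSCs against ESCs, 8 for EpiSCs against ESCs and 0 for EpiSCs against AFSCs, where 11, 11, 9, 9 and 1 members had enough counts to be tested. Leaving out 1 sample gave 6 to 9 calls for ASCs against ESCs, and 10 to 13 for ESC-ASCs against ASCs. DESeq2 called 8 between ASCs and ESCs, without *Hoxa7* and *Hoxc6*. With the replicate block the counts of calls were 10 for ASCs against ESCs, 17 against AFSCs and 16 against EpiSCs, 14 for ESC-ASCs against ESCs and 14 against ASCs, 14 for EpiLCs, 16 for AFSCs and 16 for EpiSCs against ESCs, 2 for EpiSCs against AFSCs, 16 for the difference between starting cells and 18 for any difference, as many as without it. For EpiLCs against ESCs the block ended the call of *Hoxa9* (-1.76) and added *Hoxa10*, and it changed no other call. Members under 10 counts in most samples are limited by depth, and their absence from the calls does not show that they were equal.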

Other observations

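The TALE proteins (Pbx, Meis, Pknox and Tgif), which bind DNA together with Hox proteins, were called both ways between ASCs and ESCs, with 1 of 10 higher (*Pbx3*) and 6 lower, where 26.4% of all genes tested were higher and 23.9% lower. *Meis2* had normalized counts of 464 ± 37.6 in ESCs, 229.6 ± 17.1 in ASCs, 337 ± 23.4 in EpiSCs and 1.49 ± 0.472 in ESC-ASCs (SD, n = 3). Of 21 chromatin regulators 3 were called higher in ASCs than in ESCs (*Jarid2*, *Phc1* and *Kdm6a*) and 7 lower, near those shares, and 13 were higher and 3 lower in ASCs than in AFSCs, where 32.8% and 31.2% of all genes tested were higher and lower. *Jarid2*, a Polycomb cofactor, was 3238 ± 186 in ASCs and 1706 ± 153 in ESCs. Of 9 retinoic acid genes tested 4 were higher in ASCs than in ESCs and 3 lower, beside the same 26.4% and 23.9%. *Cyp26a1*, which degrades retinoic acid, was 181 to 212 in EpiSCs and at most 7.96 in any other sample.

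Among marker lists, the summed level of 6 formative and primed markers was 266 to 437 per kb in ESCs, ASCs and ESC-ASCs and 1901 to 4292 in EpiLCs, AFSCs and EpiSCs. The sum of 8 neural markers was 589 to 645 per kb in ESCs and 98.4 to 137 in ASCs, but of the 5 tested only *Tubb3* was called lower in ASCs, *Map2* was called higher and the median log2 fold change was 0.36. The sum of 7 endoderm markers was 15.9 to 30.5 in ESCs, ASCs and ESC-ASCs and 251 to 271 in EpiSCs. Their part in the Hox levels was not tested.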
